A study of Homo sapiens with 8 samples.

Results

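The claudins and their partners at the tight junction were examined in HCT-116 cells, an established human colorectal carcinoma line. The genes were CLDN1, CLDN2, CLDN3, CLDN4, CLDN7, CLDN12, CLDN15, OCLN, TJP1 and F11R. Every probe that carries 1 of these 10 symbols in the scanner files was taken, which gave 15 of the 50599 probes on the array. CLDN2 was chosen because it was low in R50, so its differences from WT and from R50 are given as a description with no test, and it is left out of every count of members. RNA was profiled on 8 one-colour Agilent arrays, 2 for each of 4 groups. WT are untreated parental cells, and WT+NU6102 are parental cells that received NU6102, an inhibitor of the cell cycle kinases CDK1 and CDK2, at 20 µM for 24 h. CDK2-/- cells lack CDK2 and received no drug. R50 cells grew in 50 µM NU6102 from the start of their selection and were passaged with fresh drug. The paper's account of the arrays names the drug only for WT+NU6102. R50 and WT thus differ in history and may also differ in the presence of drug. WT and CDK2-/- lines were bought from a supplier. The sources do not say whether the CDK2-/- or the R50 cells come from 1 clone, or after how many passages R50 was sampled.

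Tight junctions seal the space between neighbouring epithelial cells. Claudins are membrane proteins with 4 spans that form the strands of the junction, and the set of claudins a cell makes decides which ions and water may pass. Some claudins, such as claudin-2 and claudin-15, form pores for small cations, while others, such as claudin-1, claudin-3 and claudin-4, tighten the seal. Occludin and JAM-A, the products of OCLN and F11R, are further membrane proteins of the junction, and ZO-1, the product of TJP1, ties the strands to the actin cytoskeleton.

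Levels are log2 of the background-subtracted signal less the 75th percentile of the array, so that 0 stands for the brightness at that percentile and a difference of 1 is a doubling. A level can be compared between arrays for a given probe, but not between probes. A probe could be tested where both arrays of some group had it well above background, which held for 28677 probes and for 14 of the 15 of these genes. A difference passed at a limma adjusted p under 0.05 over all 28677 probes, and was called when it was also at least 1 on the log2 scale. The arrays of WT and WT+NU6102 lay on one slide and those of CDK2-/- and R50 on the other. Groups are therefore compared within a slide only where R50 is set against CDK2-/- or WT+NU6102 against WT, and in the other comparisons slide and group cannot be told apart. Per array, 32376 to 36206 of 58717 spots stood well above background, and the median SD between duplicates over all tested probes was 0.06 to 0.07 on the log2 scale. The CDK2 probe was lower in CDK2-/- than in WT cells by a log2 difference of -0.77 (SE 0.04, limma adjusted p = 0.000268). It passed but was not called, and it stayed well above background on both CDK2-/- arrays. Against WT the same probe also passed in R50 (-0.34, adjusted p = 0.00671) and after NU6102 (0.33, adjusted p = 0.00233). Within a slide, R50 exceeded CDK2-/- by 0.44 (adjusted p = 0.00139). Of 7 epithelial marker genes, 6 could be tested, and VIL1, which encodes the brush border protein villin, was not well above background on any array. Of 9 markers of endothelial, blood and stromal cells, PECAM1, COL1A2 and COL3A1 could not be tested. The log2 of the summed signal of the other 6 ranged from -0.32 to 0.66 over the arrays, against 8.89 to 9.54 for the 6 epithelial genes. These are sums over different probes, so the gap between them is not a measure of cell shares. Of the other 6, CDH5, PTPRC, COL1A1 and ACTA2 had a probe well above background on all 8 arrays.

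Each probe is a stretch of 60 bases of the transcript, placed on hg19 by the scanner files of 2 of the groups, WT and WT+NU6102. The windows of 30 bases below are from the CLDN1, CLDN2 and CLDN3 probes and are shown because of a motif they contain. Where these probes lie relative to the ends of their transcripts was not checked. The capitals mark AATAAA, the usual signal for cleavage and polyadenylation, which these 3 of the 15 probes contain and which 7.9% of the 50599 probes on the array contain on the transcript's strand.
CLDN1, chr3:190024004-190024033, minus strand: gtaatgggaagaAATAAAagcctacgtgtt
CLDN2, chrX:106174059-106174088, plus strand: cagtaggtgatcAATAAAcacttgttgatt
CLDN3, chr7:73183331-73183360, minus strand: ttgatatttttcAATAAAagcctttcgttt

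No member probe shared a run of 20 bases with a probe of another gene on the array, and the longest run shared with a probe of another of the 10 genes was 11 bases. The second OCLN probe spans 2044 bases of hg19 and the second CLDN7 probe 165 bases, so both cross an intron. The second CLDN4 probe, at chr7:73244259-73244318, belongs to another annotated CLDN4 transcript than the first, at chr7:73246907-73246966. The OCLN, CLDN7, CLDN12, CLDN4 and F11R genes had 2 probes each, and the brighter over all arrays is called the first.

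CLDN2, which encodes the cation and water pore claudin-2, had the widest range of group means among the 15 probes, 3.53 log2 units. That range is the gap between WT and R50 on which CLDN2 was chosen, so the rank is a description only. CLDN2 levels were -0.23 and -0.28 in WT, -1.42 and -1.43 in WT+NU6102, -3.25 and -3.11 in CDK2-/-, and -3.50 and -4.07 in R50. The groups did not overlap, the order was the same on every array, and all 8 arrays were well above background. As a description, the R50 mean was 11.6-fold below the WT mean, a log2 difference of -3.53, with an SD between duplicates of 0.41 in R50 and 0.04 in WT. The CDK2-/- mean differed from WT by -2.93 on the log2 scale and the WT+NU6102 mean by -1.18, the latter within a slide. R50 lay 0.61 log2 units below CDK2-/-, and the duplicates of R50 differed from each other by nearly as much. In RNA from whole cultures, fewer cells with CLDN2 mRNA and less of it in each cell cannot be told apart. Without R50 replicate 2 that difference between R50 and CDK2-/- was -0.32, and without R50 replicate 1 it was -0.89.

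The single comparison of CLDN2 whose means involve neither WT nor R50 is CDK2-/- against WT+NU6102, and here it was tested. The SE of this test still rests on the spread within all 4 groups, WT and R50 included. The 2 groups compared lay on different slides, so slide and group cannot be told apart. CLDN2 was 3.37-fold lower in CDK2-/- cells (log2 difference -1.75, SE 0.18, limma adjusted p = 0.000673), and both CDK2-/- arrays lay below both WT+NU6102 arrays. The sizes of the CLDN2 differences depend on the background correction. With the normexp method and an offset of 50 they were -2.39 for R50, -2.11 for CDK2-/- and -1.01 for WT+NU6102 against WT, and -1.10 for CDK2-/- against WT+NU6102.

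**Figure D1:**
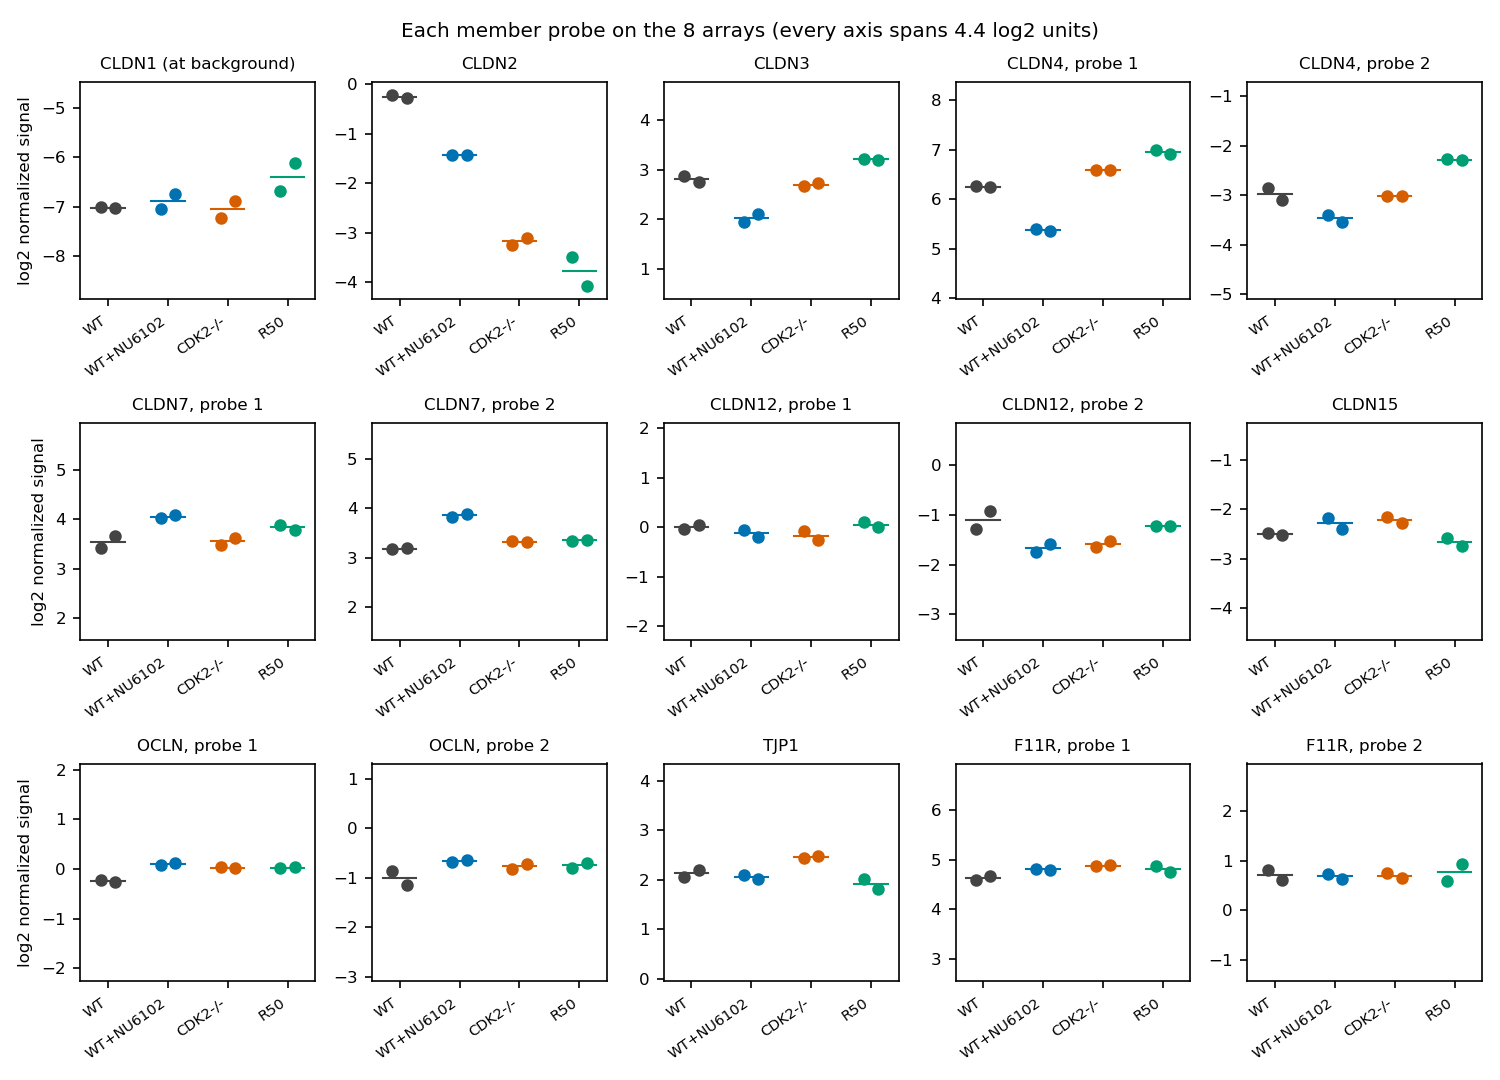
Log2 normalized signal of each of the 15 member probes (vertical axis, spanning 4.4 log2 units in every panel) in the 4 groups (horizontal axis); points are arrays and lines are group means. CLDN2 steps down from WT through WT+NU6102 and CDK2-/- to R50, CLDN3 and CLDN4 are lowest in WT+NU6102 and highest in R50, and most other panels are nearly flat.

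CLDN3 and CLDN4, which encode claudins of the sealing kind, changed in another pattern. CLDN3 levels were 2.87 and 2.75 in WT, 1.94 and 2.11 in WT+NU6102, 2.67 and 2.72 in CDK2-/-, and 3.23 and 3.19 in R50. CLDN4 levels on its first probe were 6.27 and 6.24 in WT, 5.40 and 5.36 in WT+NU6102, 6.59 and 6.59 in CDK2-/-, and 6.99 and 6.91 in R50. For both genes the WT+NU6102 arrays were the lowest and the R50 arrays the highest, with no overlap. NU6102 treatment lowered CLDN3 by 1.72-fold (log2 difference -0.78, SE 0.08, limma adjusted p = 0.000824) and CLDN4 by 1.83-fold (-0.88, SE 0.05, adjusted p = 0.000216), within a slide. In R50 cells, which were selected in a higher dose of the same drug, CLDN4 was 1.62-fold above WT (0.70, SE 0.05, adjusted p = 0.00117) and CLDN3 1.32-fold (0.40, SE 0.08, adjusted p = 0.0189).

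The widest gap for both genes lay between R50 and WT+NU6102, where CLDN4 was 2.97-fold higher (log2 difference 1.57, SE 0.05, limma adjusted p = 2.4e-05) and CLDN3 2.27-fold higher (1.18, SE 0.08, adjusted p = 0.000132) in R50. Within a slide, R50 also exceeded CDK2-/- cells, by 0.51 for CLDN3 (adjusted p = 0.00517) and by 0.36 for CLDN4 (adjusted p = 0.00437). In CDK2-/- cells CLDN4 was 0.34 above WT (adjusted p = 0.0063), while the difference for CLDN3 was -0.11 with a 95% interval of -0.30 to 0.08 and did not pass. The order for CLDN4 was thus WT+NU6102, WT, CDK2-/- and R50 with every neighbouring pair past the test. For CLDN3 the middle pair, CDK2-/- and WT, did not differ beyond its error.

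The second CLDN4 probe had levels of -2.85 and -3.09 in WT, -3.39 and -3.53 in WT+NU6102, -3.01 and -3.01 in CDK2-/-, and -2.27 and -2.30 in R50. It fell with NU6102 (log2 difference -0.49, SE 0.09, limma adjusted p = 0.00772) and was higher in R50 than in WT (0.69, SE 0.09, adjusted p = 0.00695), like the first. In CDK2-/- against WT it gave -0.04 (95% interval -0.27 to 0.19) where the first probe gave 0.34. The rise of CLDN3 in R50 against WT is the weakest of these results. Its adjusted p was 0.0517 without WT replicate 1, 0.0869 without WT replicate 2, 0.0806 without R50 replicate 1, 0.0638 without R50 replicate 2 and 0.076 with no filter on dim probes.

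CLDN3 and CLDN4 are neighbours on chromosome 7, and in RefSeq on GRCh38.p14 their starts lie on opposite strands. The 250 bases before the annotated start are shown for these neighbours because they moved together, for CLDN2 because its pattern differed, and for the start of CLDN7 that holds E-boxes because CLDN7 moved the other way with NU6102. Capitals mark GGGCGG, the GC box bound by Sp1 and its relatives, and CAGGTG, an E-box of the kind bound by repressors such as Snail and ZEB1, each searched on both strands. The reverse complements are CCGCCC and CACCTG, and none of the marked matches overlaps another. CLDN2 has entries for 2 starts, CLDN7 for 2, and CLDN3 and CLDN4 for 1 each. A match describes the letters only.
CLDN2, chrX:106899914-106900163, plus strand: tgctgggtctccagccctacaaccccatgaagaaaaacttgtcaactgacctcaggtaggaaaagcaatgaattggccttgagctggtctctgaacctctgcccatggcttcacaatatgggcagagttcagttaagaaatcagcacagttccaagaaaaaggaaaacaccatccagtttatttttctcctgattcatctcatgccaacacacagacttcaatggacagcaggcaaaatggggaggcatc
CLDN2, chrX:106918110-106918359, plus strand: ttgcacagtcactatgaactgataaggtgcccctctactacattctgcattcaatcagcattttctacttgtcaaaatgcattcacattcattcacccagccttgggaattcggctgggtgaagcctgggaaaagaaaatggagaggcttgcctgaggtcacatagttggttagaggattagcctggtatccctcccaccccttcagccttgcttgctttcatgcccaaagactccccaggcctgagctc
CLDN3, chr7:73770271-73770520, minus strand: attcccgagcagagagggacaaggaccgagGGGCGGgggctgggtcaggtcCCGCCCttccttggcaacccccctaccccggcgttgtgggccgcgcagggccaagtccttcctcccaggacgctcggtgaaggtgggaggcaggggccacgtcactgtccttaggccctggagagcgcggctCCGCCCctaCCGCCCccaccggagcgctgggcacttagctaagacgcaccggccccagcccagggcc
CLDN4, chr7:73830746-73830995, plus strand: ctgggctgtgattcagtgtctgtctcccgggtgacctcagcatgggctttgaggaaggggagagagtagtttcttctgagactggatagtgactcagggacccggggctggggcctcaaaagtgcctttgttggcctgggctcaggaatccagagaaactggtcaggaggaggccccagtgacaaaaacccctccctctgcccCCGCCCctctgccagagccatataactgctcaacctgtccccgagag
CLDN7, chr17:7262479-7262728, minus strand: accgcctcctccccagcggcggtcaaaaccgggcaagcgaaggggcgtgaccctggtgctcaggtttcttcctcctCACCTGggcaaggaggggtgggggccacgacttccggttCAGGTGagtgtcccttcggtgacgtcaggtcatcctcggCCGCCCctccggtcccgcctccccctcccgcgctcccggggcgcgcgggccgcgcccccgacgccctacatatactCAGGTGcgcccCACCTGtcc

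The CLDN3 window holds 4 GC boxes, the CLDN4 window 1 and this CLDN7 window 1, while both CLDN2 windows hold 0. Over all 35116 windows of the same length in the table, 42.6% hold a GC box, as do 9 of the 15 windows of the 9 member genes with an entry. The E-box occurs 4 times in this CLDN7 window, which was chosen for holding it, and 0 times in the window of the other CLDN7 start. It is held by 17.5% of all windows and by 4 of the 15 member windows, the others belonging to OCLN and TJP1. Neither TATAAA, the TATA box, nor TTTATG, a core of CDX sites, was found in any of the 15 windows on either strand, against 10.7% and 9.6% of all windows. Bases G and C make up 46.0% and 48.8% of the CLDN2 windows, 71.6% of that of CLDN3, 58.8% of that of CLDN4 and 71.2% of that of CLDN7, with a median of 58.0% over all windows. F11R has no entry in the table.

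CLDN7, which encodes a claudin also found along the lateral membrane, rose with NU6102 while CLDN3 and CLDN4 fell. On the first probe its levels were 3.42 and 3.66 in WT, 4.02 and 4.09 in WT+NU6102, 3.48 and 3.63 in CDK2-/-, and 3.89 and 3.78 in R50. On the second probe they were 3.18 and 3.19 in WT, 3.83 and 3.88 in WT+NU6102, 3.34 and 3.31 in CDK2-/-, and 3.33 and 3.36 in R50. On both probes the WT+NU6102 arrays were the highest of all 8. The rise was 1.59-fold on the second probe (log2 difference 0.67, SE 0.05, limma adjusted p = 0.000316) and 1.43-fold on the first (0.51, SE 0.10, adjusted p = 0.00999). On the first probe the adjusted p was 0.0528 without WT+NU6102 replicate 2. Neither CDK2-/- nor R50 passed against WT on either probe, with differences from 0.01 to 0.29. The call for the second probe in R50, with a difference of 0.16, depends on the processing, since it passed after normexp (adjusted p = 0.0155), after quantile normalization (0.0217), with the stricter filter (0.0434), with the authors' values (0.0499) and with a trended prior variance (0.00992). In CDK2-/- the second probe passed after normexp (0.0361) and with the trended prior variance (0.0151). WT+NU6102 exceeded CDK2-/- by 0.50 and 0.53 on the first and second probe, and both passed. It exceeded R50 by 0.22 on the first probe, which did not pass, and by 0.51 on the second (adjusted p = 0.000385).

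The remaining claudins moved little. CLDN12, an atypical claudin, had levels on its second probe of -1.27 and -0.92 in WT, -1.75 and -1.59 in WT+NU6102, -1.64 and -1.54 in CDK2-/-, and -1.22 and -1.22 in R50. That probe was lower than in WT after NU6102 (log2 difference -0.57, SE 0.13, limma adjusted p = 0.0153) and in CDK2-/- cells (-0.49, SE 0.13, adjusted p = 0.0352), and higher in R50 than in WT+NU6102 (0.45, SE 0.13, adjusted p = 0.031). The first CLDN12 probe ranged from -0.26 to 0.10 over the 8 arrays and passed in no comparison, so the probes of this gene did not give the same call. These 3 calls are also weak. Without WT+NU6102 replicate 1 the first had an adjusted p of 0.0732, and in a fit of the arrays of that slide alone 0.0578. The second had 0.0865 without WT replicate 2, 0.14 without CDK2-/- replicate 1 and 0.0936 without CDK2-/- replicate 2, and the third had 0.0553 to 0.132 without any one of the arrays compared.

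CLDN15, a cation pore claudin best known from the intestine, had levels of -2.48 and -2.53 in WT, -2.18 and -2.39 in WT+NU6102, -2.16 and -2.27 in CDK2-/-, and -2.58 and -2.74 in R50. Against WT it passed in no group. R50 lay below CDK2-/- cells (log2 difference -0.44, SE 0.10, limma adjusted p = 0.0181) and below WT+NU6102 (-0.37, SE 0.10, adjusted p = 0.0216). Without R50 replicate 2 these became 0.077 and 0.0959, without CDK2-/- replicate 1 the former was 0.0895, and without WT+NU6102 replicate 1 the latter was 0.0891. CLDN1 had a single probe, with values between -7.22 and -6.11, that was not well above background on any array, so it has only a bound and no difference is given.

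Among the other membrane proteins, OCLN was low in WT. Levels on its first probe were -0.22 and -0.26 in WT, 0.08 and 0.12 in WT+NU6102, 0.03 and 0.03 in CDK2-/-, and 0.02 and 0.03 in R50. Both WT arrays lay below the other 6, which did not overlap with them. Against WT, occludin mRNA was higher by 0.34 after NU6102 (SE 0.04, limma adjusted p = 0.00212), by 0.27 in CDK2-/- (adjusted p = 0.00803) and by 0.27 in R50 (adjusted p = 0.013). These 3 comparisons share the WT arrays. The second OCLN probe gave 0.35, 0.25 and 0.26 in the same order, of which the first passed (adjusted p = 0.0373), though not in a fit of that slide alone (adjusted p = 0.0909). It also did not pass without WT replicate 2 (difference 0.21, adjusted p = 0.108), WT+NU6102 replicate 1 (0.0948) or WT+NU6102 replicate 2 (0.138). The R50 call of the first probe had adjusted p from 0.0541 to 0.0664 without any one of the WT or R50 arrays, and with no filter on dim probes it was 0.0808. With no filter the CDK2-/- call was 0.0541.

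F11R, on its first probe, had levels of 4.60 and 4.67 in WT, 4.82 and 4.80 in WT+NU6102, 4.87 and 4.89 in CDK2-/-, and 4.88 and 4.75 in R50. JAM-A mRNA was higher in CDK2-/- than in WT by 0.25 (SE 0.06, limma adjusted p = 0.0301), and the call was lost without any one of the 4 arrays compared, with adjusted p from 0.0698 to 0.134. In R50 against WT the difference of 0.18 did not pass, but it did after normexp (adjusted p = 0.0222), after quantile normalization (0.0289) and with a trended prior variance (0.0206). The second F11R probe lay between 0.60 and 0.93 and passed in no comparison.

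TJP1 is the scaffold gene of the set. Its levels were 2.06 and 2.21 in WT, 2.10 and 2.03 in WT+NU6102, 2.44 and 2.48 in CDK2-/-, and 2.02 and 1.82 in R50. The CDK2-/- arrays were the highest of all 8, and the other 6 lay between 1.82 and 2.21. Within a slide ZO-1 mRNA was lower in R50 than in CDK2-/- cells by a log2 difference of -0.54 (SE 0.09, limma adjusted p = 0.00711). CDK2-/- exceeded WT+NU6102 by 0.40 (adjusted p = 0.0123), which became 0.0613 without CDK2-/- replicate 2 and 0.063 without WT+NU6102 replicate 2. It exceeded WT by 0.33 (adjusted p = 0.0412), a call lost without any one of the 4 arrays, with adjusted p from 0.0588 to 0.172.

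**Figure D2:**
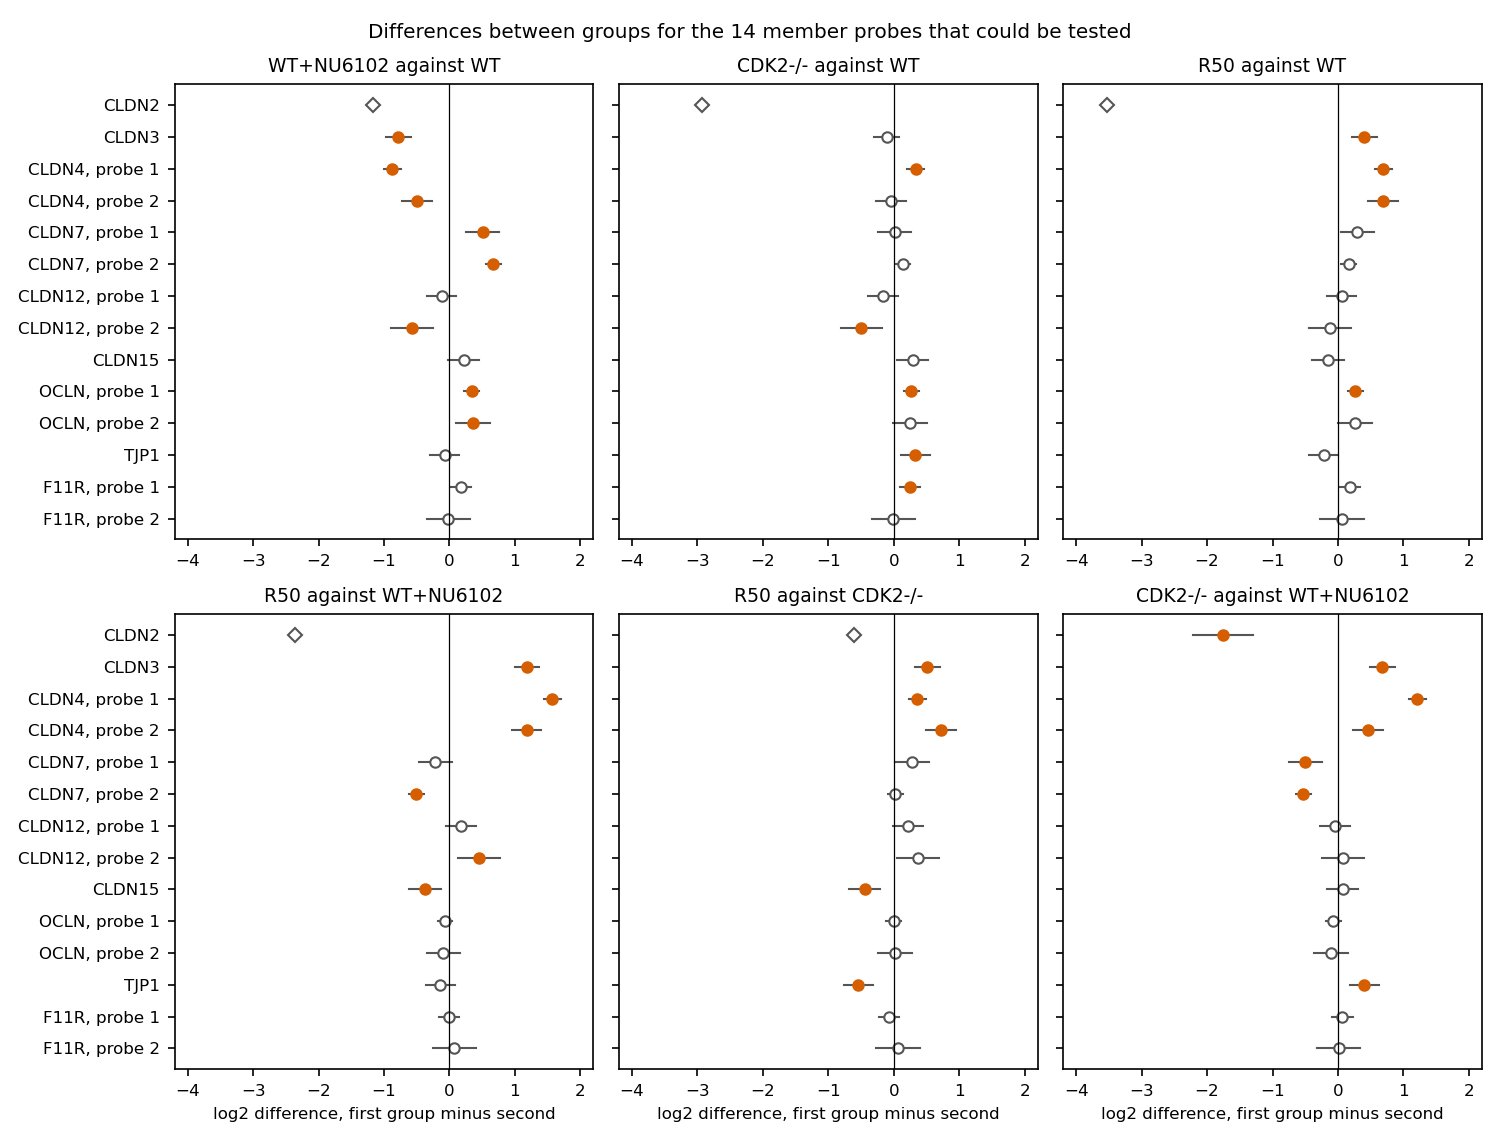
Log2 difference, first group minus second, for the 14 tested member probes in the 6 comparisons; circles are estimates with 95% intervals, filled where the limma adjusted p was under 0.05, and diamonds are the CLDN2 differences given with no test. CLDN3 and CLDN4 lie left of 0 for WT+NU6102 against WT and right of 0 for R50 against WT+NU6102, with CLDN7 on the opposite side.

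Counted over the 13 tested probes of the 8 genes other than CLDN2, 8 passed in WT+NU6102 against WT, with 4 higher and 4 lower, where 44.8% of all tested probes passed. None of the 13 was called there by limma or by the methods' t-test, since no difference exceeded 0.88 in size, while limma called 6.49% of all probes and the t-test 3.38%. In CDK2-/- against WT 5 of 13 passed, 4 higher and 1 lower, beside 31.1% of all probes, and none was called by limma beside 4.75% of all or by the t-test beside 1.67%. In R50 against WT, the comparison CLDN2 was chosen on, 4 passed, all higher, beside 22.7% of all probes, and none was called by limma beside 2.59% of all. The t-test also called none there, but it called 3 of all 28677 probes (0.0105%), so its count says nothing about the members. At an unadjusted p under 0.05, limma counted 9, 7 and 8 of the 13 in these 3 comparisons. The median log2 difference of the 13 probes was -0.02 after NU6102, 0.14 in CDK2-/- and 0.18 in R50, and that of all tested probes 0.03, 0.02 and -0.04.

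R50 against WT+NU6102 gave 6 passed probes, 4 higher and 2 lower, beside 51.6% of all. Called were 3, CLDN3 and both CLDN4 probes, all higher, beside 10.9% of all. R50 against CDK2-/- gave 5 passed, 3 higher and 2 lower, beside 34.7% of all, and none called by limma beside 5.19% or by the t-test beside 2.21%, with 7 at an unadjusted p under 0.05. In CDK2-/- against WT+NU6102 6 of 13 passed, 4 higher and 2 lower, beside 53.3% of all, and 1 was called, the first CLDN4 probe, beside 11.6% of all. A limma F-test among the 4 groups at an adjusted p under 0.001 was passed by 4 of the 13, CLDN3, both CLDN4 probes and the second CLDN7 probe, beside 21.2% of all. With 13 probes, none of these shares is read as particular to the junction genes.

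The genes whose pattern over the 8 arrays was most like that of CLDN2 were sought among 791 genes whose group means spanned at least 2 log2 units. The measure was Pearson's r over the 8 arrays, which fall into 4 groups of duplicates, and it is a description. RGS2, a regulator of G protein signalling, came first with r = 0.993. Its mean levels were 4.55 in WT, 3.42 in WT+NU6102, 1.96 in CDK2-/- and 1.66 in R50, with SDs between duplicates of at most 0.06. Next came HOXA2 (r = 0.962), ARHGAP29 (r = 0.959), HOXA3 (r = 0.943) and TMEM200A (r = 0.938). HOXA2 and HOXA3 encode homeobox transcription factors of the same cluster. HOXA2 was well above background on 4 arrays, those of WT and WT+NU6102, and the other 4 genes on all 8. In CDK2-/- and R50 HOXA2 thus has only a bound, at least 3.89-fold and at least 3.61-fold below WT. The r of HOXA2 and its span of group means rest on those dim values. As log2 differences its bounds are 1.96 and 1.85, which is short of the 2 log2 units asked for. For all these genes, as for CLDN2, the groups with low levels, CDK2-/- and R50, lay on the other slide than WT and WT+NU6102. Slide and group cannot be told apart in that step. RGS2 and HOXA2 shared the step down after NU6102, whereas TMEM200A had mean levels of 1.45 in WT and 1.42 in WT+NU6102.

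**Figure D3:**
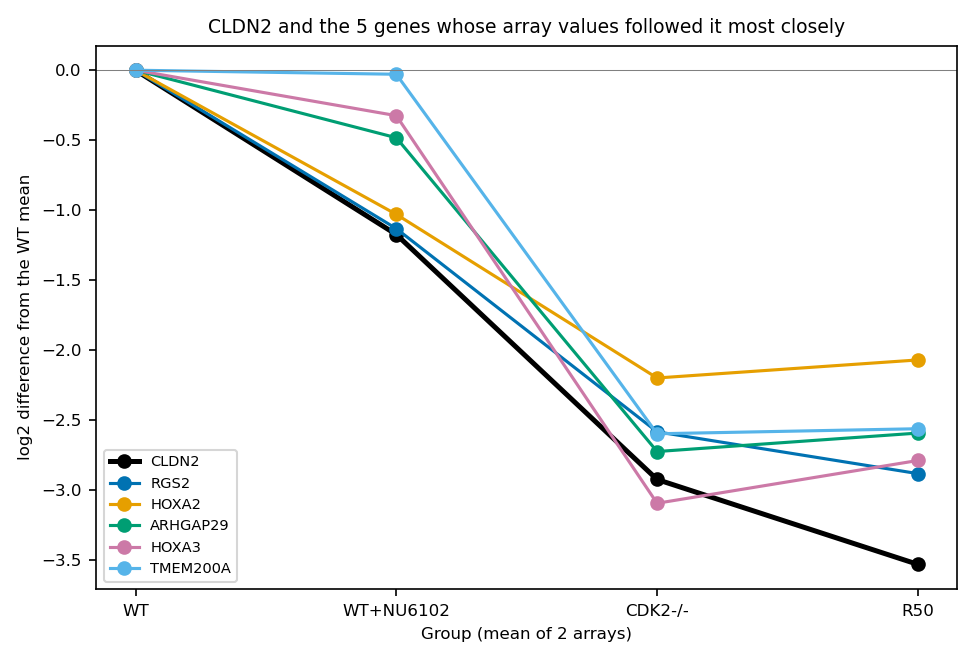
Log2 difference of each group mean (2 arrays) from the WT mean (vertical axis) in the 4 groups (horizontal axis) for CLDN2, drawn thick, and the 5 genes with the highest r with it. CLDN2 and the 4 genes other than HOXA2 lie at least 2 log2 units below WT in CDK2-/- and R50, where the HOXA2 points are not well above background, and CLDN2, RGS2 and HOXA2 lie about 1 below WT after NU6102.

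The other genes of the tight junction were read from lists. Of 14 other claudins, 4 could be tested, CLDN9, CLDN19, CLDN22 and CLDN23, with 5 probes, and none was called against WT. CLDN23 was higher in R50 than in WT by 0.39 (SE 0.08, limma adjusted p = 0.0247), and CLDN19 was higher after NU6102 by 0.27 (SE 0.06, adjusted p = 0.0151). The former had 0.0851 without WT replicate 1, 0.109 without WT replicate 2, 0.0884 without R50 replicate 1 and 0.0915 with no filter on dim probes. The latter had 0.0757 without WT replicate 1, 0.0709 without WT+NU6102 replicate 2, 0.064 with no filter and 0.0607 in a fit of that slide alone. Of 12 other membrane proteins of the junction 10 could be tested, with 14 probes. Against WT, 5 probes rose and none fell after NU6102, 6 rose and 1 fell in CDK2-/-, and 4 rose and 5 fell in R50, beside 44.8%, 31.1% and 22.7% of all probes that passed.

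Of 25 other plaque and polarity proteins, 21 could be tested, with 33 probes. After NU6102 4 probes rose and 11 fell, in CDK2-/- 6 rose and 11 fell, and in R50 4 rose and 3 fell, each against WT. These are 15, 17 and 7 of 33, beside 44.8%, 31.1% and 22.7% of all probes. Called after NU6102 were TJP3, which encodes the scaffold ZO-3, CGNL1, which encodes paracingulin, and AMOT, which encodes angiomotin. TJP3 had levels of -0.09 and -0.12 in WT, -1.67 and -1.86 in WT+NU6102, -0.16 and -0.19 in CDK2-/-, and 0.33 and 0.43 in R50. It fell by 1.66 on the log2 scale (SE 0.08, limma adjusted p = 0.000153), and both WT+NU6102 arrays were the lowest of the 8. CGNL1 fell by 1.54 (SE 0.08, adjusted p = 0.000186) and AMOT fell by 1.36 (SE 0.07, adjusted p = 0.000165), also within a slide. AMOT is dim, and after normexp its difference was -0.53 (adjusted p = 0.000257), so that it passed but was not called. In CDK2-/- cells PARD3, which encodes a polarity protein that directs junction assembly, had levels of 2.09 and 2.02 in WT, 2.03 and 2.04 in WT+NU6102, 0.84 and 0.72 in CDK2-/-, and 1.95 and 1.96 in R50 on its brightest probe. It fell by 1.28 on the log2 scale (SE 0.06, adjusted p = 0.000143), and its other 2 probes fell by 1.51 and 1.41. Apart from PARD3, the probe called in CDK2-/- against WT was the third of MAGI1, at least 1.20-fold higher. In R50 against WT the called probes were that of MAGI1, at least 1.17-fold higher, and the second of PARD6B, at least 1.23-fold lower. These lie close to background, so that only a bound can be given, and they were named after their values were seen. The first PARD6B probe, well above background on all 8 arrays, did not fall, with mean levels of -0.83 in WT and -0.76 in R50.

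Factors that act on epithelial genes were read from a list of 18, of which 15 could be tested, with 20 probes. Against WT, 6 probes rose and 4 fell after NU6102, 4 rose and 4 fell in CDK2-/-, and 2 rose and 5 fell in R50. These are 10, 8 and 7 of 20, beside 44.8%, 31.1% and 22.7% of all probes. The counts include GRHL3, whose rise in CDK2-/- was known when the list was drawn up. The CDK2-/- count is therefore a description and is not read against the share of all probes. ZEB1, a repressor of epithelial genes, had levels of -2.36 and -2.12 in WT, -0.85 and -1.0 in WT+NU6102, -2.72 and -2.61 in CDK2-/-, and -1.81 and -1.78 in R50. It rose after NU6102 by 1.31 on the log2 scale (SE 0.10, limma adjusted p = 0.0004), within a slide, and both WT+NU6102 arrays were the highest of the 8. GRHL3 and OVOL1, which encode factors that favour epithelial differentiation, were highest in CDK2-/-. GRHL3 had levels of -2.74 and -2.91 in WT, -3.45 and -4.26 in WT+NU6102, 1.77 and 1.91 in CDK2-/-, and -2.15 and -2.33 in R50, and its CDK2-/- mean lay 4.66 above that of WT, or 3.81 after normexp. The list was drawn up with this difference known, so it is given as a description with no test. OVOL1 rose in CDK2-/- by 1.19 (SE 0.05, limma adjusted p = 0.000123). The other probes called against WT were named after their values were seen. They were the second of ZEB1, at least 1.57-fold higher after NU6102 since WT was not well above background, and GRHL3, lower after NU6102 by a log2 difference of -1.03 (adjusted p = 0.0239). That call of GRHL3 is weak. The difference was -0.62 without WT+NU6102 replicate 2, -0.41 after normexp and -0.93 after quantile normalization, and the adjusted p was 0.105 without WT replicate 1, 0.0706 without WT replicate 2, 0.0604 with no filter and 0.0759 in a fit of that slide alone. In R50 against WT no probe of the 20 was called by limma, and 7 passed.

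**Figure D4:**
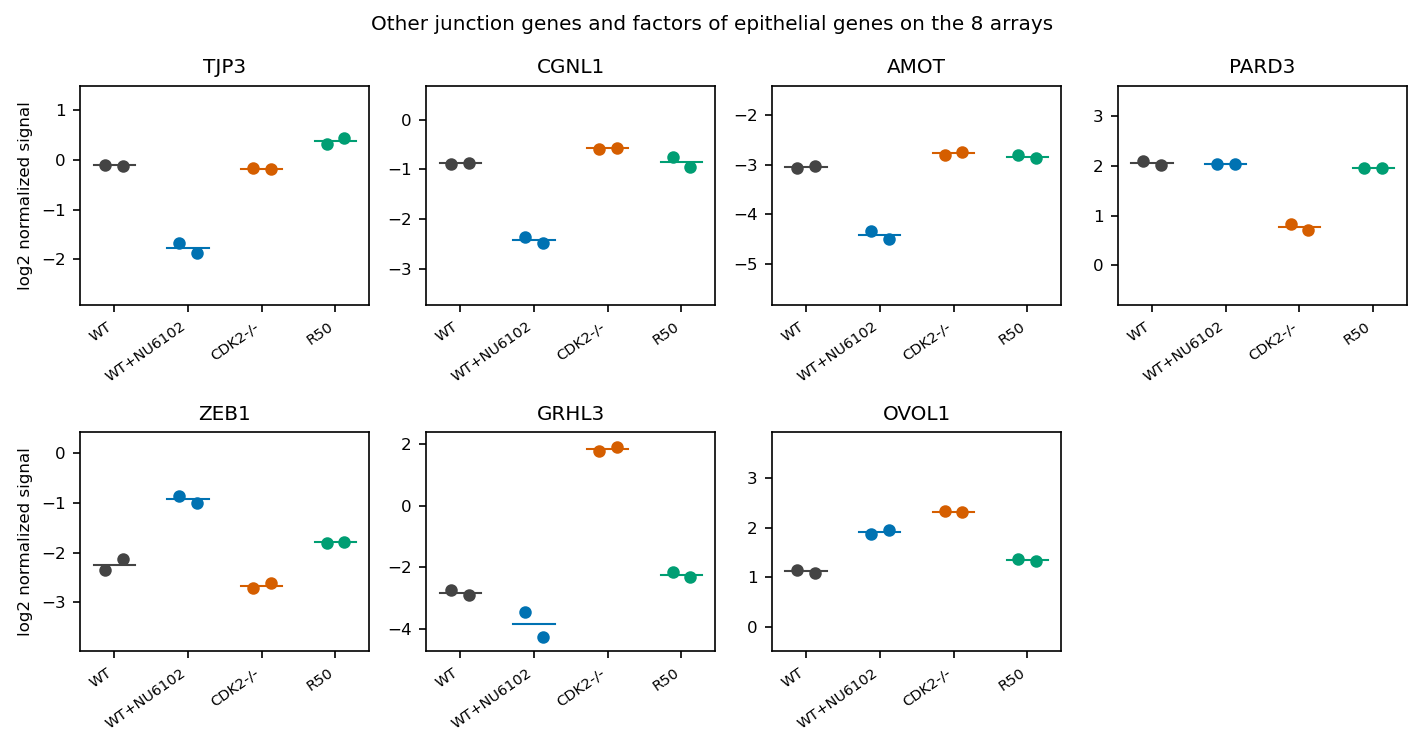
Log2 normalized signal (vertical axis; the span of the axis differs for GRHL3) of 7 genes from the lists in the 4 groups (horizontal axis); points are arrays and lines are group means. TJP3, CGNL1 and AMOT are lowest in WT+NU6102, PARD3 is lowest in CDK2-/-, and GRHL3 and OVOL1 are highest in CDK2-/-.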

How the data were processed

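RNA of 4 groups of HCT-116 cells, 2 arrays each, was hybridized by the study to one-colour Agilent arrays. The authors deposited, for each spot, a background-subtracted intensity (Agilent Feature Extraction 11.5.1.1, per the submitters' processing notes) that was not yet normalized between arrays. A second deposited table holds log2 values of 28719 probes, made by the authors in GeneSpring GX and used here as an alternative.

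Here the intensity was taken to log2 without control spots or spots marked as outliers, each array was set relative to its own 75th percentile, and spots of a probe were averaged (R 4.3.3 with data.table, version 1.17.8). Of 50599 probes, 31 had no usable spot on an array. No spot was saturated. Limma 3.58.1 fitted the 4 groups together, all tests were two-sided, and p-values were adjusted by Benjamini-Hochberg over all 28677 tested probes in each of 6 comparisons. Replicates are the study's biological duplicates, and the precision is limited by the number of arrays. The fit was tested on simulated data. The replicate numbers did not pair the samples, since deviations of equally numbered arrays correlated with r between -0.03 and 0.05.

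The members, gene lists and tests were chosen with earlier results of these data known, among them the low CLDN2 in R50 and the high GRHL3 in CDK2-/-. The text names all members, the called genes of the lists of junction genes and factors (at most 3 rises and 3 falls per comparison with WT, well above background on all arrays compared) and the 5 genes most like CLDN2. Some genes of the lists are counted but not reported here by name. CDX2 and EPCAM each stand in 2 lists. Promoter windows come from RefSeq on GRCh38.p14, where 9 of the 10 genes matched by symbol, and no coordinates were moved between builds. Proteins were not used here. Alternatives were quantile normalization, normexp with an offset of 50, no filter on dim probes or a stricter one, the values from the authors, a trended prior variance, a replicate block, each slide alone, outlier spots kept, the methods' t-test and ANOVA, and leaving out each array. Figures were drawn with Python and matplotlib.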

Additional observations from a re-analysis of the deposited data

How the results depend on the processing

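Counts of called member probes were 0 in WT+NU6102, CDK2-/- and R50 against WT and in R50 against CDK2-/- under every alternative run. CDK2-/- against WT+NU6102 had 1 throughout, and R50 against WT+NU6102 had 3 except after normexp, where 2 were called. Counts past the adjusted p alone moved more. By the methods' t-test, 3 of 13 member probes passed in WT+NU6102 against WT, 1 in CDK2-/- against WT, 0 in R50 against WT, 2 in R50 against CDK2-/- and 3 in CDK2-/- against WT+NU6102, beside 5299, 1434, 13, 2167 and 8986 of all 28677 probes. With no filter on dim probes 1 passed in CDK2-/- and 2 in R50 against WT, and with a trended prior variance 8 passed in R50 against WT. The methods' ANOVA left 2 probes that differ among the groups, the first CLDN4 and the second CLDN7 probe, in place of 4. When single arrays were left out, 2 to 4 probes passed in CDK2-/- against WT, with 2 without WT replicate 2 or any one array of CDK2-/- or WT+NU6102. In R50 against WT 2 to 4 passed, with 2 without any one array of WT or R50. The cause of these shifts was not tested.

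With the replicate number as a block, 8, 4 and 4 member probes passed in WT+NU6102, CDK2-/- and R50 against WT, in place of 8, 5 and 4. Single calls lost were the second OCLN probe after NU6102 (adjusted p = 0.064), and TJP1 (0.0693) and F11R (0.0519) in CDK2-/-. Calls gained were CLDN15 after NU6102 (adjusted p = 0.0417) and in CDK2-/- (0.0275), each against WT, and the second CLDN12 probe in R50 against CDK2-/- (0.0483).

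No sign changed among the 56 single differences that passed or are described. All 56 could be computed in each setting over all arrays. The calls lost were 1 after normexp, 1 after quantile normalization, 1 with the authors' values, 13 with no filter, 31 by the methods' t-test, and none with the stricter filter, the trended prior variance or outlier spots kept. Of 23 differences within a slide, 4 were lost when that slide was fitted alone. Of the 44 member differences that did not pass, 6 passed after normexp, 4 after quantile normalization, 2 with the stricter filter, 1 with the authors' values and 9 with the trended prior variance. Of 13 such within a slide, 1 passed in the fit of that slide alone. Signs among the 44 changed 4 times after normexp, 5 after quantile normalization, 3 with the authors' values and 2 with outlier spots kept. One of these passed, the first F11R probe in R50 against WT+NU6102 after quantile normalization (0.19, adjusted p = 0.0321). A probe near background gives only a bound.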

Other observations

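Some epithelial markers changed in the same directions as CLDN3 and CLDN4, and others did not. In R50 against WT 7 of 9 tested marker probes passed, all higher, beside 22.7% of all probes, with a median log2 difference of 0.68, among them CDH1, which encodes E-cadherin (0.60, limma adjusted p = 0.00363), KRT19 (0.68, adjusted p = 0.0012) and the first KRT8 probe (0.83, adjusted p = 0.0032). After NU6102 6 probes rose and 2 fell, beside 44.8% of all. CDH1 fell by 0.37 on the log2 scale (adjusted p = 0.00555) and KRT19 fell by 0.30 (adjusted p = 0.00493), while both KRT18 probes and all 3 KRT8 probes rose. CDH1 and KRT19 were thus lower after NU6102 and higher in R50, as CLDN3 and CLDN4 were, and KRT8 and KRT18 were higher in both. EPCAM had mean levels of 6.21 in WT, 6.61 in WT+NU6102 and 6.23 in R50. Those of CDX2 were 1.02, 0.66 and 1.03 in the same order. The probes that rose after NU6102 were those of EPCAM, KRT8 and KRT18, and those that fell were of CDH1 and KRT19. In R50 the probes that passed were those of CDH1, KRT19, KRT8 and KRT18. With 3 probes of KRT8 and 2 of KRT18, these counts of probes are not counts of genes. These genes were picked out after their values were seen, and any part of the one change in the other was not tested.

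Of the 9 markers of other cell types, the log2 of the summed signal of the 6 tested was -0.03 to -0.01 in WT, -0.32 to -0.23 in WT+NU6102, 0.58 to 0.66 in CDK2-/- and 0.40 to 0.48 in R50. Of these, 2 were called in CDK2-/- against WT, among them COL1A1, a collagen gene of fibroblasts, higher by 1.22, or by 0.83 after normexp. Their part in the changes of the junction genes was not tested.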
